A study of Mus musculus with 12 samples.

Results

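The genes described here are 10 mouse targets of p53 that promote cell death, read in kidneys of wild-type and FAN1KO mice after saline or cisplatin. They were chosen by NCBI Gene number from a table of 27179 genes, and all 10 were found in it. They include Bax (12028), Bbc3 (170770) and Pmaip1 (58801) of the BCL2 family. Fas (14102), Tnfrsf10b (21933) and Eda2r (245527) are receptors of the tumour necrosis factor receptor superfamily. The others are the effectors Phlda3 (27280), Aen (68048), Perp (64058) and Trp53inp1 (60599). The tissue was whole kidney of mice aged 8 to 12 weeks, whose background the labels give as mixed. Wild-type and FAN1KO (γGT1-Cre;Fan1-/-) mice were given either saline or cisplatin at 2 mg/kg by weekly intraperitoneal injection over 5 weeks, with 3 mice in each of the 4 groups. In FAN1KO the Cre acts in proximal tubule cells, so the other cells of the kidney keep Fan1. Each level is a TPM, the share of a gene among all transcripts after correction for gene length.

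p53 is a transcription factor that is stabilised when DNA is damaged, and it binds response elements near the genes it switches on. Cisplatin crosslinks DNA, and FAN1 is a nuclease that acts in the repair of such crosslinks. The p53 targets of cell death work on separate routes: BCL2 family members open the outer mitochondrial membrane, receptors of the tumour necrosis factor receptor superfamily carry death signals from the cell surface, and other targets act on survival signalling, DNA, cell junctions or autophagy. The proximal tubule takes up cisplatin and is the part of the nephron best known to be injured by it.

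The libraries held 37201911 to 82946962 reads in genes, recovered from the steps in the TPM. Fan1 itself did not check the labels, since its TPM ranged over 1.98 to 3.80 in wild-type saline, 1.17 to 2.28 in FAN1KO saline, 2.33 to 3.57 in wild-type cisplatin and 1.55 to 3.51 in FAN1KO cisplatin kidneys, and the genotypes overlapped under both treatments. All 8 proximal tubule markers were above the filter on low values and none was at 0 in all libraries. In each group 1 library was high in Y-linked genes, with a mean log2(TPM + 1) of 3.46 to 3.93 against at most 0.10 in the other 8: these were wild-type saline replicate 3, FAN1KO saline replicate 1, wild-type cisplatin replicate 1 and FAN1KO cisplatin replicate 3. All 10 p53 targets passed the filter on low values (a minimum of 1 TPM in 3 or more libraries, which 14972 genes met), Eda2r through its cisplatin libraries alone.

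Windows upstream of the start site were available from RefSeq (GRCm38.p6) for 6 of the 10 genes, as 9 windows, and were searched on both strands for the p53 consensus decamer. Bax and Aen are shown because their windows held an exact decamer, and Phlda3 and Eda2r because their levels differed most between saline and cisplatin by ratio of means while their windows held none. Each window runs 5′ to 3′ from 250 bases before the start to 30 bases after it, and capitals mark the decamers found. Bax lies on chromosome 7 (window chr7:45466869-45467148, minus strand), Aen on chromosome 7 (chr7:78895677-78895956, plus strand), Phlda3 on chromosome 1 (chr1:135765835-135766114, plus strand) and Eda2r on chromosome X (chrX:97377180-97377459, minus strand).
Bax: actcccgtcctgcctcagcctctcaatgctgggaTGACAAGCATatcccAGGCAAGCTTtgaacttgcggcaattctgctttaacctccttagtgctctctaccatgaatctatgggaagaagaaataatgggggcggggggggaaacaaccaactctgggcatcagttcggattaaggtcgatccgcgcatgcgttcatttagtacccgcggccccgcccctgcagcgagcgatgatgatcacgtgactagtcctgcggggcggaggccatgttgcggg
Aen: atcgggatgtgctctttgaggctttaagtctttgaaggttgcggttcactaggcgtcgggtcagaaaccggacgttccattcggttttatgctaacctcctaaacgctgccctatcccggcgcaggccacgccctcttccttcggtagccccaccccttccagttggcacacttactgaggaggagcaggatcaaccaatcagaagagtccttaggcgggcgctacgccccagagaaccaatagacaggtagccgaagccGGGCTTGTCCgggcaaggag
Phlda3: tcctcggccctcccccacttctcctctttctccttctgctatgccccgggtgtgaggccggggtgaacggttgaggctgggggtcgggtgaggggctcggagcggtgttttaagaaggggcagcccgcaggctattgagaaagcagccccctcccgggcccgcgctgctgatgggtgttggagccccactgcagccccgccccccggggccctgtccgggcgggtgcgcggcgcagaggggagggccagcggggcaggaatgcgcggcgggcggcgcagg
Eda2r: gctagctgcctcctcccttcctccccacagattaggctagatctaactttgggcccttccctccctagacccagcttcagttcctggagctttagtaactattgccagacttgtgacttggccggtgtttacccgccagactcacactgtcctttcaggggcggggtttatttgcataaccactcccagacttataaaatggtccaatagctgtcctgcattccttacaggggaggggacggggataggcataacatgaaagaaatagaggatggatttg
In Bax the 2 decamers form a full element, 216 to 192 bases before the start, with a spacer of 5 bases and 2 mismatches in all. In Aen a single exact decamer begins 10 bases after the start, which is 121 bases before a second RefSeq start of the gene. An exact decamer was found in 8.36% of 32851 RefSeq windows of 300 bases, and a full element (spacer of at most 13 bases, at most 2 mismatches) in 4.09% of them. Among the 6 genes with a window, 2 held an exact decamer and 1 a full element. The windows cover little of each gene, so the count speaks of these letters alone. Of the genes with no sequence shown, Bbc3 lies at chr7:16308398-16318334, Fas at chr19:34290647-34327775, Tnfrsf10b at chr14:69767472-69784411, Perp at chr10:18845071-18857073 and Trp53inp1 at chr4:11156441-11174379 on the same build.

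Under cisplatin the p53 targets of cell death were higher in FAN1KO than in wild-type kidneys, and the 2 genotypes did not overlap for any of the 10 genes. The test was passed by 8 of the 10, with the largest log2 fold changes in Pmaip1 (2.12) and Bbc3 (2.00) and the smallest among those called in Perp (0.68) and Aen (0.75). Fas and Tnfrsf10b did not pass, though voom, limma's method for counts, called Fas on the recovered reads and so 9 of 10, beside 20.2% of all genes called higher. The test was limma on log2(TPM + 1) with Benjamini-Hochberg adjustment over all genes, and it called 19.6% of all genes higher in the same comparison. Higher values without overlap were found in 35.7% of all genes. The exact permutation test of 3 against 3 kidneys gave p = 0.1 (two-sided) for each of the 10 genes, the smallest it can give. The median log2 fold change was 1.13 over the 10 genes and 0.24 over all genes tested.

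Bax, which opens the outer mitochondrial membrane, was the most abundant of the 10 genes in every group. The TPM values were 89.1, 109.5 and 119 in wild-type saline, 101, 121 and 125 in FAN1KO saline, 144, 210.4 and 230.1 in wild-type cisplatin and 448, 436 and 347 in FAN1KO cisplatin kidneys. The FAN1KO cisplatin kidneys stood above all others, while the saline groups overlapped. The genotypes differed under cisplatin by a log2 fold change of 1.09 ± 0.19 (SE, limma adjusted p = 0.00335). In the mouse annotation Bax shares exonic sequence with Gm45808 on the same strand, and how reads there were counted is not given in the sources used here.

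Bbc3 encodes PUMA, a BH3-only protein that releases BAX from its inhibitors. In TPM, the kidneys held 3.08, 4.63 and 5.03 in wild-type saline, 2.82, 3.20 and 3.08 in FAN1KO saline, 7.54, 10.9 and 14.2 in wild-type cisplatin and 53.1, 46.3 and 37.7 in FAN1KO cisplatin kidneys. The lowest FAN1KO cisplatin kidney was thus far above the highest wild-type one, and the log2 fold change was 2.00 ± 0.22 (SE, limma adjusted p = 0.00047).

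Pmaip1 encodes NOXA, a BH3-only protein that binds the death-opposing MCL1. The TPM values were 6.63, 7.70 and 4.06 in wild-type saline, 3.87, 7.08 and 11.6 in FAN1KO saline, 4.39, 8.07 and 11.1 in wild-type cisplatin and 51.2, 34.4 and 25.5 in FAN1KO cisplatin kidneys. The first 3 groups overlapped each other, and only the FAN1KO cisplatin kidneys stood apart. Under cisplatin the genotypes differed by a log2 fold change of 2.12 ± 0.40 (SE, limma adjusted p = 0.00544).

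Among the receptors, Fas gave TPM values of 9.04, 7.17 and 4.82 in wild-type saline, 4.66, 6.79 and 7.93 in FAN1KO saline, 6.30, 10.9 and 11.1 in wild-type cisplatin and 18.8, 17.8 and 12.5 in FAN1KO cisplatin kidneys. Its genotype difference under cisplatin was 0.75 ± 0.28 on the log2 scale (SE, limma adjusted p = 0.0717), with a 95% confidence interval of 0.14 to 1.36, and voom gave 0.85 (adjusted p = 0.0488). The groups did not overlap, but the distance between the nearest kidneys was small beside the spread within each group.

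Tnfrsf10b encodes the receptor of the death ligand TRAIL in mice. In TPM, the kidneys held 2.96, 2.84 and 1.32 in wild-type saline, 1.50, 2.65 and 3.07 in FAN1KO saline, 3.36, 6.93 and 7.78 in wild-type cisplatin and 13.8, 11.2 and 7.83 in FAN1KO cisplatin kidneys. The nearest kidneys of the 2 genotypes under cisplatin were 7.78 and 7.83, and the log2 fold change of 0.80 ± 0.33 (SE) had a limma adjusted p of 0.102.

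Eda2r, the receptor of an ectodysplasin isoform, was almost silent under saline and, among the 10 genes, differed most between saline and cisplatin by ratio of means. The TPM values were 0.070, 0.23 and 0.069 in wild-type saline, 0.024, 0.050 and 0.12 in FAN1KO saline, 1.15, 2.02 and 3.89 in wild-type cisplatin and 9.39, 9.46 and 6.23 in FAN1KO cisplatin kidneys. The saline values rest on 4 to 31 recovered reads and the cisplatin values on 226 to 1235, so the 2 treatments are far apart and the saline levels imprecise. Under cisplatin the genotypes differed by 1.54 ± 0.27 on the log2(TPM + 1) scale (SE, limma adjusted p = 0.00383), a scale that understates the change of a low gene.

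Phlda3 encodes a PH-domain protein that keeps AKT from the membrane. In TPM, the kidneys held 7.03, 12.3 and 5.42 in wild-type saline, 5.32, 7.16 and 9.49 in FAN1KO saline, 37.9, 64.6 and 106 in wild-type cisplatin and 248, 241 and 160.1 in FAN1KO cisplatin kidneys. The cisplatin kidneys of either genotype were above every saline kidney, and the wild-type cisplatin kidneys spread more widely, relative to their mean, than the FAN1KO ones. The genotype difference under cisplatin was 1.72 ± 0.37 on the log2 scale (SE, limma adjusted p = 0.00982).

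Aen encodes an exonuclease that takes part in DNA breakdown during apoptosis. The TPM values were 12.4, 13.8 and 16.5 in wild-type saline, 17.3, 16.1 and 18 in FAN1KO saline, 34.9, 34.0 and 50.5 in wild-type cisplatin and 77.3, 69.7 and 55.0 in FAN1KO cisplatin kidneys. The nearest kidneys of the 2 genotypes under cisplatin were 50.5 and 55.0. The log2 fold change between genotypes was 0.75 ± 0.18 (SE, limma adjusted p = 0.0131). The call was lost without wild-type cisplatin replicate 1 (adjusted p = 0.0509) and without FAN1KO cisplatin replicate 1 (adjusted p = 0.0627), and with only the 6 cisplatin libraries in the fit (adjusted p = 0.0505).

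Perp, a membrane protein of desmosomes and of p53-dependent death, varied least within groups relative to its mean. In TPM, the kidneys held 64.5, 60.3 and 64.4 in wild-type saline, 66.7, 60.1 and 63.0 in FAN1KO saline, 69.7, 66.9 and 71.9 in wild-type cisplatin and 121, 111 and 103 in FAN1KO cisplatin kidneys. The 9 kidneys outside the FAN1KO cisplatin group thus shared a narrow band, and the genotype difference under cisplatin was 0.68 ± 0.086 on the log2 scale (SE, limma adjusted p = 0.000877).

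Trp53inp1, a stress protein that works with p53 and in autophagy, gave TPM values of 8.39, 7.12 and 5.44 in wild-type saline, 9.20, 6.65 and 6.86 in FAN1KO saline, 17.3, 16.5 and 20.9 in wild-type cisplatin and 46.4, 48.7 and 32.2 in FAN1KO cisplatin kidneys. The 3 levels of saline, wild-type cisplatin and FAN1KO cisplatin did not overlap. The genotype difference under cisplatin was 1.16 ± 0.20 on the log2 scale (SE, limma adjusted p = 0.00355).

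**Figure D1:**
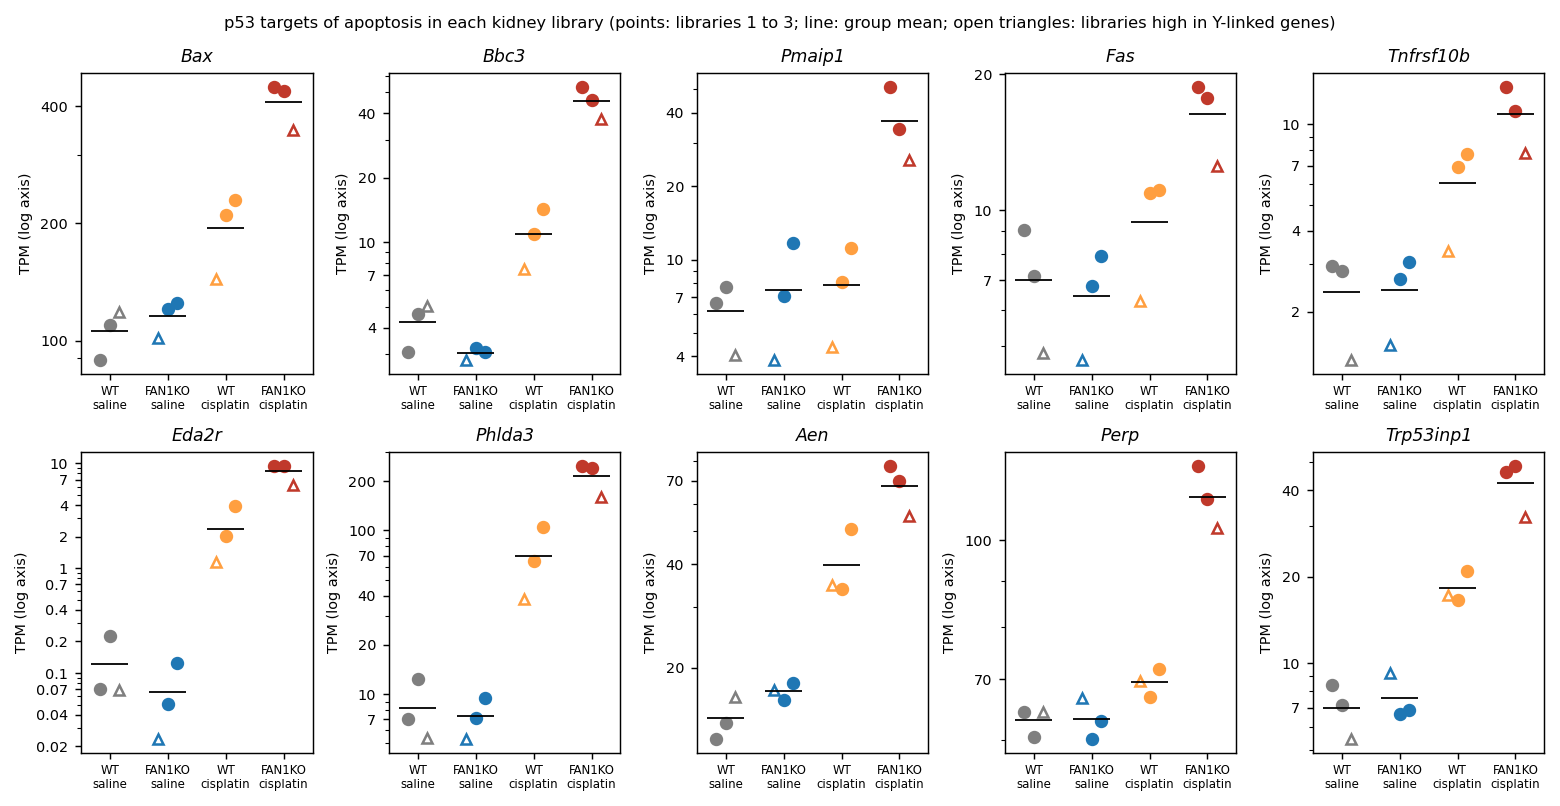
TPM (log axis) of the 10 p53 targets of cell death in each of 12 kidney libraries, by group. Points are libraries, black lines are group means, and open triangles are the library of each group that was high in Y-linked genes. The FAN1KO cisplatin kidneys lie above the wild-type cisplatin kidneys in all 10 panels.

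Because TPM add up to the same total in each library, the genes' values are tied to one another, and the median gene lay above 0 in these comparisons. Scaling each library by the median ratio over genes lowered the log2 fold change of the median gene by 0.27 for FAN1KO against wild-type under cisplatin, by 0.40 for cisplatin against saline in FAN1KO and by 0.31 for the difference of responses. On that scale all 10 genes were still higher in FAN1KO under cisplatin, with log2 fold changes of 0.37 to 1.83, and 6 of 10 passed the test. Aen (adjusted p = 0.163) and Perp (adjusted p = 0.161) did not, by limma. Over all genes, limma called 1300 higher and 1154 lower on that scale, against 2931 and 654 on the TPM scale.

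Without cisplatin the genotypes did not differ detectably in any of the 10 genes. None passed the test by limma, none had an unadjusted p under 0.05, and limma's voom on recovered reads called 0, while 0.341% of all genes were called higher and 0.427% lower. An unadjusted p under 0.05 was found for 1255 of all 14972 genes tested. Log2 fold changes were -0.36 (Bbc3) to 0.26 (Aen), with 6 of 10 above 0, and their median was 0.014 against -0.037 over all genes. The 2 genotypes overlapped for every gene, where 4.62% of all genes did not overlap and were higher and 7.83% lower. The 95% confidence interval was narrowest for Perp (-0.19 to 0.19), and reached from -0.70 to 1.08 for Pmaip1, which includes a doubling.

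All 10 p53 targets of cell death rose with cisplatin in FAN1KO kidneys. By limma 10 of 10 passed the test, beside 34.9% of all genes called higher, and no cisplatin kidney overlapped a saline kidney, as in 47.4% of all genes. Eda2r entered the test through its cisplatin libraries alone, so a difference from saline was built into its selection. The median log2 fold change was 2.05 over the 10 genes and 0.37 over all genes. These FAN1KO cisplatin kidneys, and the wild-type cisplatin kidneys below, are the same ones as in the genotype comparison under cisplatin. Phlda3 rose most on the log2(TPM + 1) scale, by 4.71 ± 0.37 (SE, limma adjusted p = 4.82e-05), a ratio of mean TPM of 29.6. Bbc3 followed with 3.52 ± 0.22 (SE), a ratio of 15.1, and Eda2r with 3.12 ± 0.27 (SE). The mean TPM of Eda2r was 127 times that under saline, and voom on the recovered reads gave it a log2 fold change of 7.15. Trp53inp1 (2.33), Pmaip1 (2.21), Aen (1.90), Bax (1.82), Tnfrsf10b (1.81), Fas (1.22) and Perp (0.81) followed in order of log2 fold change. After median-ratio scaling 9 of 10 passed, with 2157 genes called higher and 2101 lower over all genes against 5229 and 733 on the TPM scale, and Perp did not (log2 fold change 0.35, limma adjusted p = 0.147).

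In wild-type kidneys the same 10 genes were higher on average under cisplatin, and fewer passed the test. Phlda3 rose by 2.88 ± 0.37 and Aen by 1.41 ± 0.18 on the log2 scale (SE, limma adjusted p = 0.0222 for each), and these 2 of 10 were the calls, beside 0.0601% of all genes called higher. Of the 10 genes, 7 had an unadjusted p under 0.05, beside 449 of all 14972 genes tested. Cisplatin and saline kidneys did not overlap for 8 of 10, beside 5.2% of all genes, and the exceptions were Pmaip1 and Fas. Both counts include Eda2r, which entered the test through its cisplatin libraries alone, so a difference from saline was built into its selection. Trp53inp1 had a log2 fold change of 1.28 (limma adjusted p = 0.0626), Eda2r of 1.50 (0.133), Bbc3 of 1.16 (0.201) and Bax of 0.86 (0.348). The median was 1.10 over the 10 genes and 0.084 over all genes.

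The number of calls in wild-type kidneys depended on single libraries. It was 0 without any of the 3 wild-type saline replicates in turn, without wild-type cisplatin replicate 2 or 3, or without FAN1KO cisplatin replicate 2, and 1 without FAN1KO cisplatin replicate 1. It was 5 without wild-type cisplatin replicate 1, which was the lowest of its group for 7 of the 10 genes and high in Y-linked genes. With only the 6 wild-type libraries in the fit none of the 10 genes was called, and Phlda3 and Aen both had a limma adjusted p of 0.407. With all 12 libraries limma called 9 of 14972 genes. How many of all genes the other fits called is not given here, so these counts are not set against all genes.

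The response to cisplatin was larger in FAN1KO than in wild-type kidneys in the estimate of all 10 genes, which is the difference of the 2 log2 fold changes above. By limma's test of that difference 3 of 10 passed, beside 5.22% of all genes with a positive call: Bbc3 (2.36 ± 0.32, SE, adjusted p = 0.00597), Eda2r (1.62 ± 0.38, adjusted p = 0.0384) and Perp (0.67 ± 0.12, adjusted p = 0.0157). Trp53inp1 (adjusted p = 0.0531), Bax (0.0559), Phlda3 (0.0651) and Pmaip1 (0.0686) lay just outside, with differences of 1.05, 0.96, 1.83 and 1.93. Aen had the smallest difference, 0.50, with a 95% confidence interval of -0.053 to 1.05. The median difference was 1.01 over the 10 genes and 0.28 over all genes.

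Expressed as a share of the FAN1KO response on the log2 scale, the wild-type response was 12.4% for Pmaip1, 17.0% for Perp, 31.0% for Fas and 33.0% for Bbc3. It was 47.1% for Bax, 48.1% for Eda2r, 54.8% for Trp53inp1, 57.2% for Tnfrsf10b, 61.1% for Phlda3 and 73.9% for Aen. These shares are given without a test, and those of Pmaip1 and Fas rest on wild-type groups that overlapped. The share of Eda2r, which was low under saline, depends on the scale. By voom on recovered reads its log2 responses were 4.26 in wild-type and 7.15 in FAN1KO kidneys.

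The calls on the difference of responses changed with single libraries and with the scale. Eda2r lost its call without any library but wild-type cisplatin replicate 3 and FAN1KO cisplatin replicate 3 (adjusted p = 0.0564 to 0.101 for the other 10), and the number of calls was 5 without either of those. Perp lost its call after median-ratio scaling (0.31, limma adjusted p = 0.505). Bbc3 was called in every alternative that was run.

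**Figure D2:**
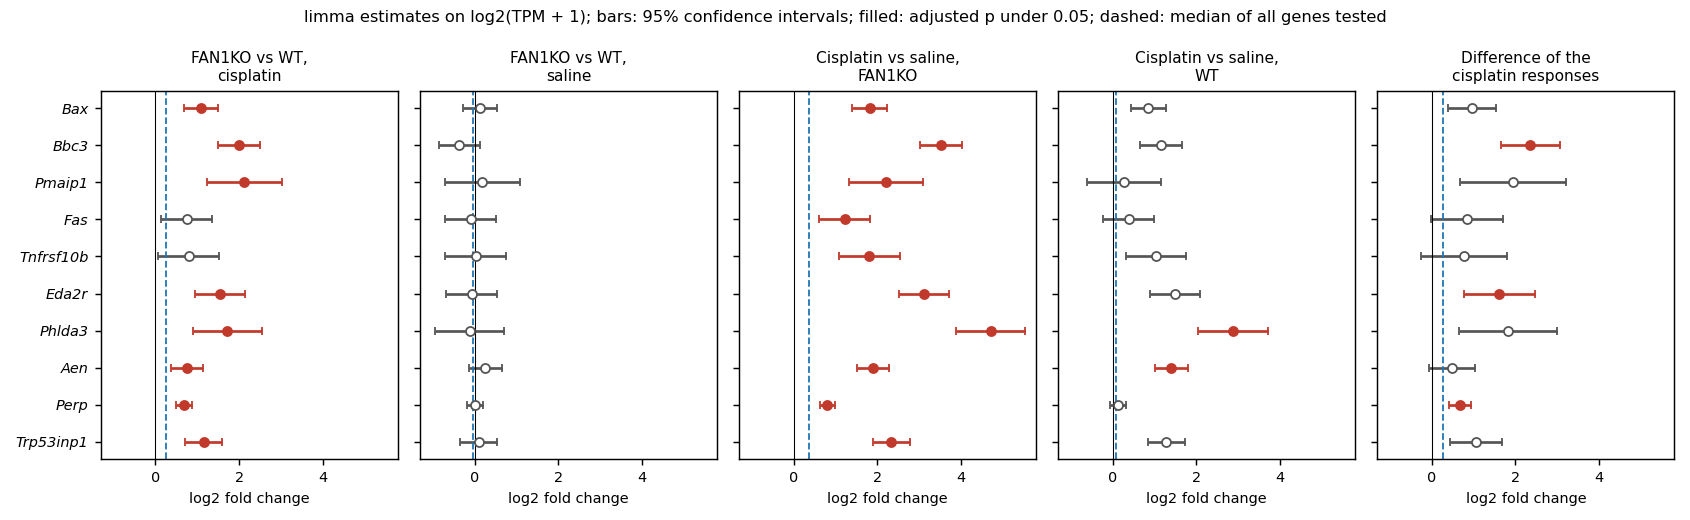
Log2 fold changes of the 10 p53 targets of cell death in 5 comparisons, from limma on log2(TPM + 1) with 95% confidence intervals. Filled points passed the test, open points did not, and the dashed line is the median over all 14972 genes tested. All 10 genes pass for cisplatin in FAN1KO, and all 10 intervals include 0 for the genotypes under saline.

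**Figure D3:**
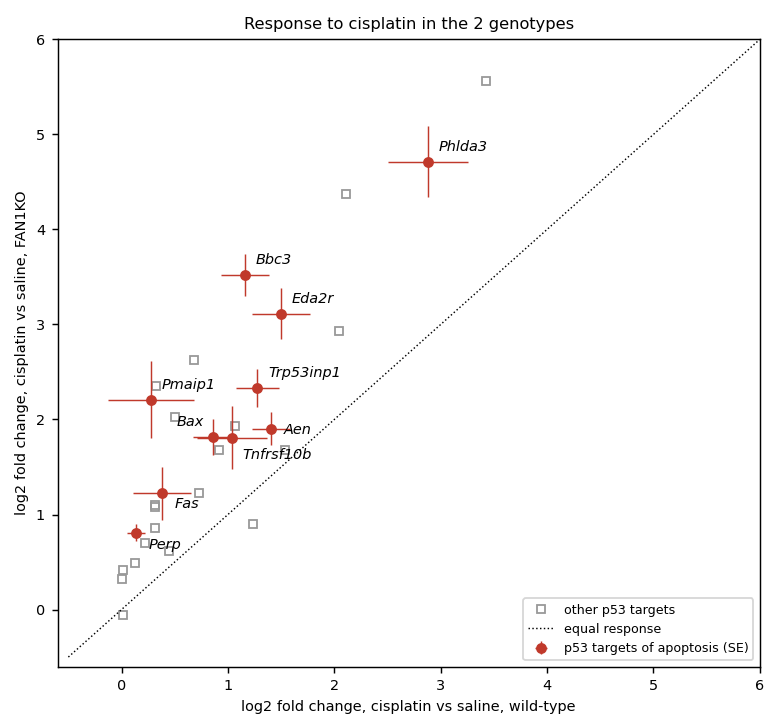
Log2 fold change under cisplatin in FAN1KO (y axis) against that in wild-type kidneys (x axis) for the 10 p53 targets of cell death (red points with SE) and 20 other p53 targets (grey squares), from limma on log2(TPM + 1). All 10 red points lie above the dotted line of equal response, and Phlda3 is the farthest red point along both axes. Cdkn1a, a grey square, lies farther along both (3.43 in wild-type and 5.56 in FAN1KO kidneys).

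Within each cisplatin group, 1 kidney stood at the same end of the range for all 10 genes. FAN1KO cisplatin replicate 3 was the lowest of its group for 10 of 10 genes, and for 9 after median-ratio scaling. Wild-type cisplatin replicate 3 was the highest of its group for 10 of 10, and for 8 after scaling. The genes share these libraries, so the ranks are not independent of each other. How many of all genes had the same ranks was not counted. The median ratio over genes was 1.09 in FAN1KO cisplatin replicate 3, against 1.38 and 1.24 in replicates 1 and 2. In wild-type cisplatin replicate 3 it was 1.08, against 0.84 and 1.09. FAN1KO cisplatin replicate 3 was also the library of its group that was high in Y-linked genes. With the level of Y-linked genes as a covariate, or with only the 8 libraries low in them (an alternative chosen after the data were seen), all 10 genes were called higher in FAN1KO under cisplatin, Fas with adjusted p = 0.000338 and 0.00886 and Tnfrsf10b with adjusted p = 0.000506 and 0.0109 by limma. These fits also called more of all genes higher, 40.3% with the covariate and 28.9% with the 8 libraries.

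The summed TPM of the 10 genes was 203 to 226 in wild-type saline, 213 to 248 in FAN1KO saline, 326 to 527 in wild-type cisplatin and 787 to 1087 in FAN1KO cisplatin kidneys. Bax alone made up 41% to 53% of it. Markers of the tubule moved with these levels. Under cisplatin the summed TPM of 8 proximal tubule markers was 1873 to 3691 in FAN1KO and 4510 to 6214 in wild-type kidneys, with 5 of 8 called lower, and that of 4 markers of injured tubule was 778 to 1155 against 32.8 to 148, with 4 of 4 called higher. Of 14972 genes tested, 654 were called lower and 19.6% higher in that comparison. In wild-type kidneys, where Phlda3 and Aen were called, 0 of these 12 markers passed the test for cisplatin against saline by limma or voom, with 3 at an unadjusted p under 0.05, all of injured tubule. There limma called 0.0601% and voom 0.0668% of all genes, and 449 of 14972 had an unadjusted p under 0.05 by limma. The median log2 fold change in wild-type kidneys was 1.95 for the 4 injured tubule markers and -0.13 for the 8 proximal tubule markers. The part of the markers in the result was not tested. In whole kidney, fewer cells of a type and less RNA per cell cannot be told apart, and nor can more RNA per cell from more cells that hold it.

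**Figure D4:**
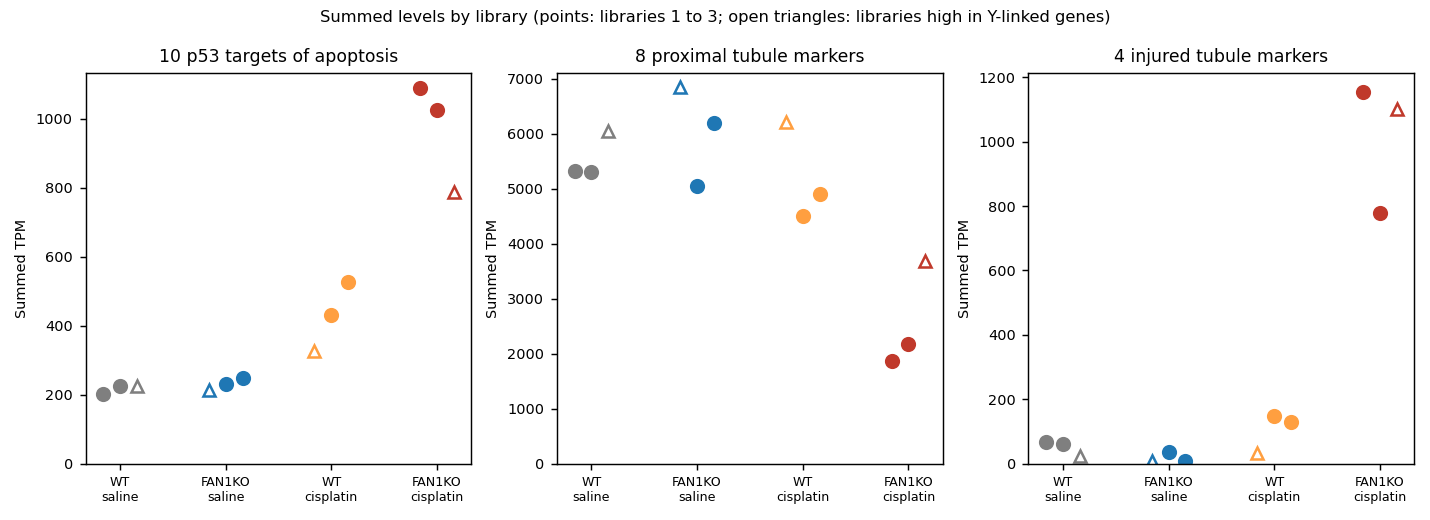
Summed TPM per library of the 10 p53 targets of cell death, of 8 proximal tubule markers and of 4 markers of injured tubule, by group. Points are libraries and open triangles are those high in Y-linked genes. In FAN1KO cisplatin kidneys the sums of the p53 targets and of the injured tubule markers lie above, and that of the proximal tubule markers below, every other kidney.

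Among p53 itself and its regulators, the gene of p53 rose in FAN1KO kidneys. Trp53 gave TPM values of 25.6, 24.8 and 26.6 in wild-type saline, 17.0, 23.2 and 20.4 in FAN1KO saline, 30.3, 38.3 and 31.0 in wild-type cisplatin and 65.5, 54.5 and 50.3 in FAN1KO cisplatin kidneys. Under cisplatin it was higher in FAN1KO by 0.76 on the log2 scale (limma adjusted p = 0.00505), and its responses to cisplatin differed by 1.09 (adjusted p = 0.0162, or 0.0574 after median-ratio scaling). Of 9 genes in the list of the p53 family and regulators 7 were tested and 3 were higher in FAN1KO under cisplatin, beside 19.6% of all genes: Chek2 (1.05), Trp53 and Chek1 (0.67). Chek1 reached 1 TPM in the FAN1KO cisplatin libraries alone, so a difference was built into its selection. Chek2 already stood apart under saline, at 3.48 to 4.32 TPM in FAN1KO against 1.72 to 2.15 in wild-type kidneys. It did not pass the test there (log2 fold change 0.76, limma adjusted p = 0.125), though after median-ratio scaling 1 of the 7 genes was called higher under saline. The responses of Chek2 to cisplatin did not differ detectably (0.29, limma adjusted p = 0.522).

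The other p53 targets, those of cell cycle arrest, feedback, stress and repair, gave 10 of 20 called higher and 0 lower in FAN1KO against wild-type under cisplatin, beside 19.6% of all genes called higher, with a median log2 fold change of 0.66. The first 4 by size were Gdf15 (1.97), a stress cytokine, Cdkn1a (1.92), the cell cycle inhibitor p21, Btg2 (1.85) and Rprm (1.71). In FAN1KO kidneys 17 of 20 rose with cisplatin and in wild-type kidneys 5 of 20, beside 34.9% and 0.0601% of all genes. The responses differed for 3 of 20, beside 5.22% of all genes: Cdkn1a (2.13, limma adjusted p = 0.0472), Zmat3 (0.86, adjusted p = 0.0491) and Gdf15 (2.26, adjusted p = 0.00597). After median-ratio scaling Gdf15 alone of these kept its call (adjusted p = 0.0103), with 8 of 20 called higher between genotypes under cisplatin, and 13 of 20 higher and 1 lower for cisplatin in FAN1KO. Under saline 0 of 20 were called by limma or voom, and 0 had an unadjusted p under 0.05, beside 1255 of all 14972 genes tested.

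On the receptor route the ligands of the 3 receptors were read beside them. Fasl held 0 to 5 reads and Eda 21 to 95 reads per library, and neither passed the filter on low values. Tnfsf10, which encodes TRAIL, did not differ detectably between genotypes under cisplatin (log2 fold change 0.28, limma adjusted p = 0.543) and fell by 0.95 with cisplatin in FAN1KO kidneys (adjusted p = 0.0343). The kidneys held a Tnfsf10 TPM of 8.17, 8.53 and 4.19 in wild-type saline, 21.0, 14.2 and 10.2 in FAN1KO saline, 4.09, 7.87 and 5.42 in wild-type cisplatin and 8.62, 6.90 and 5.85 in FAN1KO cisplatin kidneys, and under saline all FAN1KO kidneys lay above the wild-type ones without passing the test (log2 fold change 1.02, limma adjusted p = 0.290). Among 12 tested genes of 16 listed for this route, 4 were higher in FAN1KO under cisplatin, beside 19.6% of all genes: the decoy receptor Tnfrsf23 (1.85), the adaptors Traf2 (0.86) and Edaradd (0.78), and the initiator caspase Casp8 (0.36). Edaradd reached 1 TPM in the FAN1KO cisplatin libraries alone, and Tnfrsf23 in these and 1 wild-type cisplatin library, so for both a difference was built into the selection.

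On the mitochondrial route 25 of 26 listed genes were tested and 6 were higher in FAN1KO under cisplatin, beside 19.6% of all genes, with 0 lower. They were 3 of 7 other death-promoting BCL2 members and 3 of 4 caspase inhibitors, whereas 0 of 6 death-opposing BCL2 members and 0 of 8 apoptosome genes and caspases were called by limma (2 and 3 at an unadjusted p under 0.05, 0 and 2 by voom). Over all genes tested, 5691 of 14972 had an unadjusted p under 0.05. After median-ratio scaling 1 death-opposing member was called lower. The first 4 by size were Bik (2.99), a BH3-only gene, the inhibitor Birc3 (1.47), the pore-forming Bak1 (1.38) and Birc5 (1.11), which reached 1 TPM in the FAN1KO cisplatin libraries alone. Bik was also higher in FAN1KO under saline (2.11, limma adjusted p = 0.0427), with a TPM of 24.0, 17.9 and 12.2 against 4.08, 3.81 and 2.18, which none of the 10 p53 targets was, though voom did not call it (adjusted p = 0.0547). Of the 6 death-opposing members, 4 rose with cisplatin in FAN1KO kidneys, beside 34.9% of all genes called higher. Of these 6, voom called 3, and after median-ratio scaling 2 were called higher and 1 lower.

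The genes whose pattern over the 12 libraries was most like the mean of the 10 p53 targets were Snhg15 (Pearson r = 0.993), Tmem43 (0.990), Lif (0.990), Psrc1 (0.989) and Gtse1 (0.988). These are the highest values among all genes tested outside the 10, the libraries and their 4 groups are shared by every gene, and no p is given. Snhg15 had a TPM of 6.36 ± 1.31 in wild-type saline, 5.28 ± 0.65 in FAN1KO saline, 15.5 ± 4.84 in wild-type cisplatin and 41.0 ± 8.58 in FAN1KO cisplatin kidneys (SD, n = 3).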

How the data were processed

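RNA of whole kidney from 12 mice (4 groups of 3) was sequenced as paired reads. The deposited values were TPM as computed by the authors, for 27179 genes by NCBI Gene number, on build mm10 per the labels. The aligner, counter and annotation are not given in the sources used here. The submitters' processing notes name limma. Symbols and windows came from RefSeq (GRCm38.p6), and 1904 identifiers had no name. The genes and lists were chosen with earlier results of these data known. Every one of the 10 genes is named. Of the fixed lists (other p53 targets, p53 and regulators, receptor route, mitochondrial route, relatives of the other effectors and cell type markers) the first 4 called by size are, with the 3 ligands, Trp53 and the 5 genes most like the mean of the 10.

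From the TPM, log2(TPM + 1) was taken for the 14972 genes that reached 1 TPM in 3 or more libraries. A model of 4 group means over 12 libraries was fitted in limma 3.58.1 (R 4.3.3) with a mean-variance trend, and p-values were adjusted by Benjamini-Hochberg over all genes with a threshold of 0.05. No sample was dropped. The spread is that between these kidneys. Reads were recovered because TPM within a library are whole reads over gene length: each of the 232991 values above 0 gave a whole number within 0.05 reads. The length of each gene was searched for until this held, so it does not by itself check the recovery. Of 783 small RNA genes above 0, 216 came back with their annotated length. The recovered reads served for depth and for voom. The recovery of reads and limma's comparison of the genotypes under cisplatin were tested on simulated data, and the other steps were not. Python 3.11.15, numpy 2.4.6, pandas 2.3.3, numba 0.67.0 and matplotlib 3.10.9 were also used. Alternatives were a pseudocount of 0.1, no filter, median-ratio scaling, 6 libraries, no trend, a replicate block, a Y-linked covariate, voom, each library left out and, chosen after seeing the data, only the 8 libraries low in Y-linked genes.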

Additional observations from a re-analysis of the deposited data

Results flagged for a closer look

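The response to cisplatin differed between FAN1KO and wild-type kidneys, by limma's test of the difference itself, for 3 of the 10 p53 targets of cell death. The difference of the log2 fold changes was 2.36 for Bbc3 (adjusted p = 0.00597), with 3.52 in FAN1KO kidneys against 1.16 in wild-type ones. It was 1.62 for Eda2r (adjusted p = 0.0384), with 3.12 against 1.50. It was 0.67 for Perp (adjusted p = 0.0157), with 0.81 against 0.14. Eda2r lost its call without any of 10 of the 12 libraries in turn, and Perp after median-ratio scaling (0.31, adjusted p = 0.505).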

How the results depend on the processing

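The number of the 10 genes called higher in FAN1KO under cisplatin was 7 to 8 with any library left out, and 10 in FAN1KO for cisplatin against saline. It was 0 between genotypes under saline in each of these. For cisplatin against saline in wild-type kidneys it was 0 with only the 6 libraries of the comparison. It was also 0 with the replicate block, which called 0 of all 14972 genes there. It was 6 with the Y-linked covariate, 7 with the 8 libraries low in Y-linked genes and 0 to 5 with a library left out. For the difference of responses it was 9 with the Y-linked covariate, 8 with the 8 libraries low in Y-linked genes and 2 to 5 with a library left out. The covariate and the 8 libraries also raised the share of all genes called higher, to 0.381% and 0.401% in wild-type kidneys and to 27.3% and 13.4% for the difference of responses. The cause was not tested. Phlda3 lost its call in wild-type kidneys by voom (adjusted p = 0.0625) and Aen after median-ratio scaling (adjusted p = 0.0626). Eda2r lost its call on the difference of responses with a pseudocount of 0.1 (adjusted p = 0.0745) and by voom (adjusted p = 0.129).

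The replicate numbers gave no sign that the mice were paired. The mean correlation of same-numbered deviations was -0.24 and -0.21 between genotypes under cisplatin and saline, and -0.14 and -0.18 between treatments in FAN1KO and wild-type kidneys. Single correlations ran from -0.61 to 0.60, so the check is too coarse to exclude a pairing. Not every library correlated best with its own number. With the replicate block 8, 0, 10, 0 and 2 genes were called in the 5 comparisons, where Phlda3 and Aen (adjusted p = 0.0766 for each) and the difference of Eda2r (adjusted p = 0.0699) were lost. The block called 15.9%, 0.214%, 32%, 0% and 2.34% of all genes higher in the same order. In wild-type kidneys it thus called 0 of 14972 genes.

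Only differences between genotypes under saline, none of which passed a test, changed sign. Perp was at -0.0078 by voom and -0.019 with the 8 libraries low in Y-linked genes, where Tnfrsf10b was at -0.017 and Trp53inp1 at -0.17. With a library left out the log2 fold change was -0.15 to 0.54 for Pmaip1, -0.31 to 0.093 for Fas, -0.23 to 0.23 for Tnfrsf10b, -0.34 to 0.18 for Phlda3, -0.035 to 0.039 for Perp and -0.040 to 0.23 for Trp53inp1. Depth limits Eda2r most.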

Other observations

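Relatives of the other effectors were read beside them. Of Phlda1, Phlda2, Isg20, Isg20l2, Pmp22 and Trp53inp2, 0 of 6 passed limma's test between genotypes under cisplatin, where their median log2 fold change was 0.058, while 1 had an unadjusted p under 0.05 and 1 was called by voom. Over all genes tested, limma called 19.6% higher, and 5691 of 14972 had an unadjusted p under 0.05. With cisplatin in FAN1KO kidneys 3 of 6 rose, beside 34.9% of all genes called higher by limma. They were Isg20 (1.72, adjusted p = 0.0139), Phlda1 (1.18, adjusted p = 0.0255) and Isg20l2 (0.46, adjusted p = 0.0467). The median log2 fold change of the 6 was 0.33, against 0.37 over all genes. After median-ratio scaling 2 of 6 were called higher and 2 lower.

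Markers of other cells were also compared between the cisplatin-treated genotypes, FAN1KO against wild-type. Over all 14972 genes tested, limma called 19.6% higher and 654 genes lower in this comparison, and 5691 had an unadjusted p under 0.05. By limma 3 of 3 erythroid markers were lower (summed TPM 5.54 to 72.4 against 2300.2 to 6531), as was 1 of 2 of the distal convoluted tubule. Of 6 macrophage markers 1 was higher (112 to 310 against 43.5 to 116), as were 1 of 6 of T and NK cells, 1 of 4 of the collecting duct and 1 of 1 tested of the urothelium. Markers of the thick ascending limb (0 of 2), podocytes (0 of 3), endothelium (0 of 4), fibroblasts (0 of 4), B and plasma cells (0 of 3 tested) and neutrophils (0 of 2 tested) did not pass the test, and among these lists 1 marker, of B and plasma cells, had an unadjusted p under 0.05 and voom called 0. After median-ratio scaling 3 of 3 erythroid markers were still lower, and those of macrophages, T and NK cells, collecting duct and urothelium were not called.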
